A study of Rattus norvegicus with 24 samples.

Results

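The LPS main effect in the nucleus accumbens (NAc) was measured as the difference between 8 libraries of rats with a history of LPS and 8 libraries of rats that had been given saline instead, taken over rats that later received heroin and rats that did not. These 16 libraries, of the 24 in the series, were those of the injection experiment, with 4 libraries in each group. The controls were Saline-Saline and Saline-Heroin, and the groups with LPS were LPS-Saline and LPS-Heroin, where the first word names the pretreatment and the second the later injections. All were from male Sprague Dawley rats that were 8 weeks old on arrival. LPS (lipopolysaccharide) at 250 µg/kg, or saline, was given intermittently in 5 intraperitoneal injections, and heroin rising from 1 to 5 mg/kg, or saline, was injected on 5 days later on. The labels place a week between both phases, whereas the paper's methods give a shorter gap. Tissue is recorded as taken 1 h after the last injection. The paper's methods instead place it within 1 h of the end of a short locomotion recording that followed that injection, so the interval may have varied. Every group, controls included, had thus been handled, injected and recorded that day. The measurements therefore bear on what remained after a past LPS challenge, and not on its acute phase. Of 32545 genes listed, the 15113 with a mean of at least 0.5 FPKM (fragments scaled by gene length and sequencing depth) over the 16 libraries were tested, with heroin as a covariate.

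LPS is a component of the outer membrane of Gram-negative bacteria. It is handed by Cd14 to the receptor complex of Tlr4 and Ly96, which signals through Myd88 to NF-kB and, along a separate branch, to interferon regulatory factors. NF-kB raises cytokines such as Il1b, Tnf and Il6, and secreted interferons raise a set of antiviral genes in the cells that receive them. In the brain, microglia are the main cells that respond, while the NAc itself consists mostly of GABAergic medium spiny neurons that receive dopamine and cortical glutamate and take part in reward.

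Reads on genes numbered 12312878 to 18850240 per library. Medium spiny neuron markers were high in all of them, with Drd1 at 41.1 to 88.5 FPKM and Drd2 at 24.6 to 53.8 FPKM. None of the 15 such markers tested passed the thresholds for LPS defined below, which 1.79% of all genes passed. A list this short can hold none without differing from other genes. Markers of neighbouring tissue differed more between libraries than between most groups. The mean log2(FPKM + 0.1) of 15 cortical glutamatergic markers was 3.17 to 3.41 in 4 libraries, Saline-Saline replicates 1 and 3, LPS-Saline replicate 3 and Saline-Heroin replicate 2, and 3.87 to 4.49 in the other 12. Of those 4, 3 were saline libraries. The same mean over 12 markers of the septum and ventral forebrain was lowest in LPS-Heroin replicate 2 at 0.922 and highest in Saline-Saline replicate 1 at 3.20. Its median was 1.68 over LPS libraries and 1.999 over saline libraries, against 4.28 and 3.90 for the cortical markers, so that both marker sets moved with LPS, in opposite directions. Markers of mural cells and fibroblasts, the choroid plexus and ependyma also had lower median levels after LPS, at 1.76 against 2.33, 0.01 against 1.07 and 0.72 against 1.11. Main results below are therefore also given from a fit with the cortical and septal levels as covariates or from a fit without the 4 libraries. Both fits were chosen with the data already in view.

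**Figure D1:**
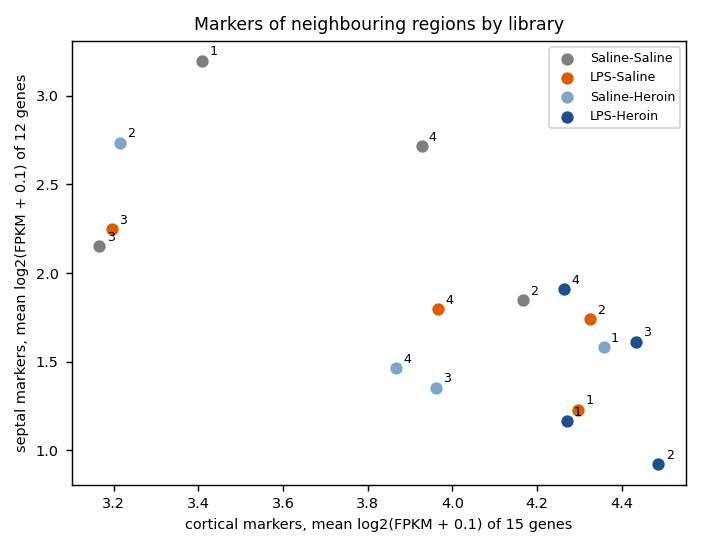
Mean log2(FPKM + 0.1) of 15 cortical markers (horizontal axis) against that of 12 septal markers (vertical axis); each point is 1 of the 16 libraries, coloured by group and numbered by replicate. The 4 libraries at 3.17 to 3.41 on the cortical axis stand apart on the left, and the 4 LPS-Heroin libraries lie on the right at 4.26 to 4.49. LPS-Saline replicates 1 and 2 (4.30 and 4.33) and Saline-Heroin replicate 1 (4.36) lie in that range too.

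After LPS, 270 of 15113 genes (1.79%) passed both thresholds that the study's pattern analyses use, a 1.3-fold difference in either direction and a p, not adjusted, no higher than 0.05, with 137 higher (0.907%) and 133 lower (0.88%). Their median absolute log2 fold change was 0.60, and 202 were protein-coding, 37 were small RNA genes and 41 had fewer than 10 reads on average. No gene had an adjusted p under 0.05 by limma with Benjamini-Hochberg adjustment, and the smallest adjusted p was 0.506. In all, 1034 genes (6.84%) had an unadjusted p under 0.05, and 756 would have one if LPS had no effect at all. Limma-voom on the recovered reads likewise gave 0 genes with an adjusted p under 0.05, and 1061 with an unadjusted p under 0.05. In what follows, "higher", "lower" and "passed" refer to the unadjusted thresholds.

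The pooled effect was then split by the later injections, in contrasts that share no library. LPS-Saline against Saline-Saline gave 343 genes past the thresholds (2.27%), 158 higher and 185 lower, and LPS-Heroin against Saline-Heroin gave 304 (2.01%), 175 higher and 129 lower. The LPS differences of both contrasts were only weakly related across the 15113 genes, with Pearson's r at 0.0737 and Spearman's rho at 0.115, and with r = 0.132 over the 14201 genes with at least 10 reads on average. Genes are not independent replicates, so no p is attached. Among the 343 genes of the saline-injected rats, 59.8% had the same sign in the heroin-injected rats, against 54.0% of all genes, and their median difference fell from 0.61 in their own contrast to 0.07 in the other. Only 21 genes passed in both contrasts, 6.12% of the first list and 6.91% of the second, and 11 of these had the same sign. Among those 11, the genes with a protein product were Cabp7, Trh, Fam131a, Rpp40, Plxdc1 and Trib1. No gene of either contrast had an adjusted p under 0.05 by limma (smallest adjusted p 0.569 in saline-injected and 1.00 in heroin-injected rats).

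**Figure D2:**
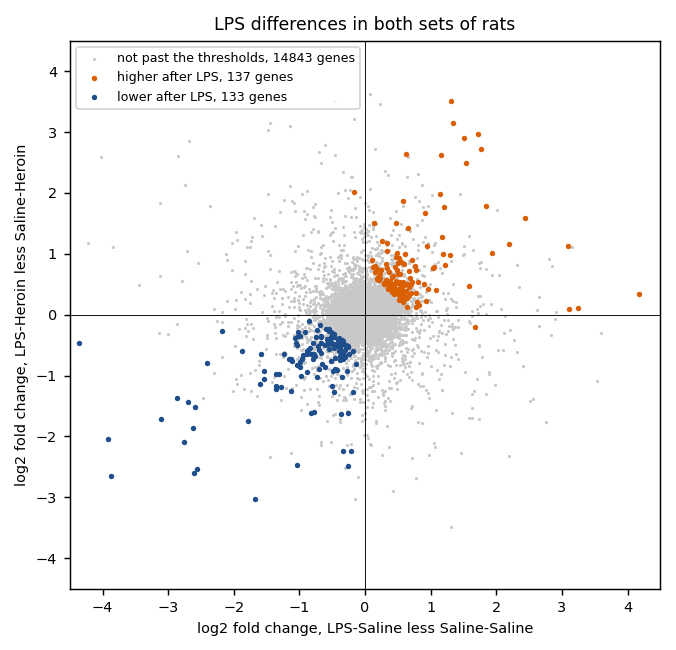
Log2 fold change of LPS-Saline against Saline-Saline (horizontal axis) and of LPS-Heroin against Saline-Heroin (vertical axis); each point is 1 of 15113 genes, with the 137 genes higher and the 133 lower after LPS in the pooled comparison in colour. The cloud as a whole has little slope (Pearson r of 0.0737), and the coloured genes lie in the quadrants of equal sign because the pooled thresholds select them there.

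LPS sensing and its classical inflammatory targets showed no gene past the thresholds. With 1.79% of all genes past them, short lists such as these can hold none without differing from other genes. Of 22 symbols in the list of LPS receptor and Toll-like signalling genes, 15 genes were tested and 0 passed, with a median log2 fold change of -0.01 and a range of -0.28 to 0.21. The receptor genes themselves were barely transcribed in this tissue. Tlr4 was at 0.170 to 0.718 FPKM and Cd14 at 0.120 to 0.813 FPKM, both below the filter of a mean of 0.5. Myd88, the adaptor downstream, was at 2.11, 2.75 and 3.40 FPKM (lowest, median and highest) in LPS libraries and at 2.36, 3.05 and 4.25 in saline libraries. These ranges overlapped widely, and the log2 fold change was -0.20 ± 0.13 (SE, exact permutation p = 0.123, n = 8 and 8). Nfkbia, an inhibitor that NF-kB itself induces, had medians of 20.5 and 20.4 FPKM in LPS and saline libraries.

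The cytokines most closely tied to LPS were near the detection limit in both arms. Il1b had at most 3 reads in any library and 0.149 FPKM at most, Il6 at most 5 reads and 0.331 FPKM, and of 2 gene rows named Tnf, 1 had reads in LPS-Saline replicate 1 alone, at 0.0804 FPKM, and the other had none. No difference in these 3 genes was detectable at this depth. Of the 27 cytokine, chemokine and receptor genes tested, 0 passed (median 0.05), against 1.79% of all genes (median 0.00). The NF-kB and inflammasome list had 0 of 18 (median 0.02) and inflammatory enzymes and acute phase genes 0 of 14 (median -0.02). Complement and antigen presentation genes had 0 of 22 (median -0.04). Hmox1, which encodes the haem-degrading enzyme haem oxygenase, was at 3.08, 3.56 and 4.04 FPKM in LPS libraries and 3.48, 4.40 and 5.35 in saline libraries. Its log2 fold change of -0.27 ± 0.09 (exact permutation p = 0.00531) missed the fold threshold alone. Socs3, of the same list, went the other way, with medians of 1.33 and 0.957 FPKM and 13.9 reads on average. It was at 0.42 ± 0.21 (exact permutation p = 0.0449) and missed the p threshold alone (limma p = 0.0557). That list had 5 positive and 9 negative genes. In the NF-kB list, Tnip1 was at -0.12 ± 0.05 and Rel at 0.36 ± 0.18. All were named for a small p in their list, so these p-values are a description. In the complement and antigen presentation list 8 genes were positive and 14 negative. Cd74, the invariant chain of antigen-presenting molecules, had its smallest p, at 2.15, 4.33 and 17.4 FPKM after LPS and 4.06, 8.70 and 18.8 after saline (-0.86 ± 0.41, exact permutation p = 0.0792). C3, the central complement component, had medians of 3.67 FPKM after LPS and 2.30 FPKM after saline, but both ranges, 2.08 to 5.28 and 0.712 to 5.51, overlapped (log2 fold change 0.67 ± 0.34, exact permutation p = 0.0947).

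Microglial genes stayed close to the level of saline rats. None of 18 markers passed, against 1.79% of all genes. Their median log2 fold change was 0.01, and 12 were positive and 6 negative. Aif1, a calcium-binding protein used as a microglial stain, was at 7.81, 9.21 and 10.1 FPKM after LPS and 6.48, 8.77 and 14.2 after saline. C1qa, a complement subunit made by microglia, had medians of 47.5 and 48.8 FPKM, with a log2 fold change of -0.05 ± 0.09. Cx3cr1, the fractalkine receptor, differed between both sets of rats. It averaged 12.9 ± 1.8 FPKM (SD, n = 4) in LPS-Saline against 14.5 ± 3.1 in Saline-Saline, and 12.9 ± 1.6 in LPS-Heroin against 9.95 ± 2.9 in Saline-Heroin, and the interaction on the log2 scale was 0.57. Its unadjusted p by limma, fitted across all genes, was 0.0464. Gfap, the intermediate filament of astrocytes, had medians of 145 and 146 FPKM, but 13 of 14 astrocyte markers were negative (median -0.06), and the median level of that list was 5.51 after LPS and 5.76 after saline. Esam and Slco1a4, both endothelial, differed in opposite directions by -0.18 ± 0.08 and 0.18 ± 0.08, below the fold threshold.

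**Figure D3:**
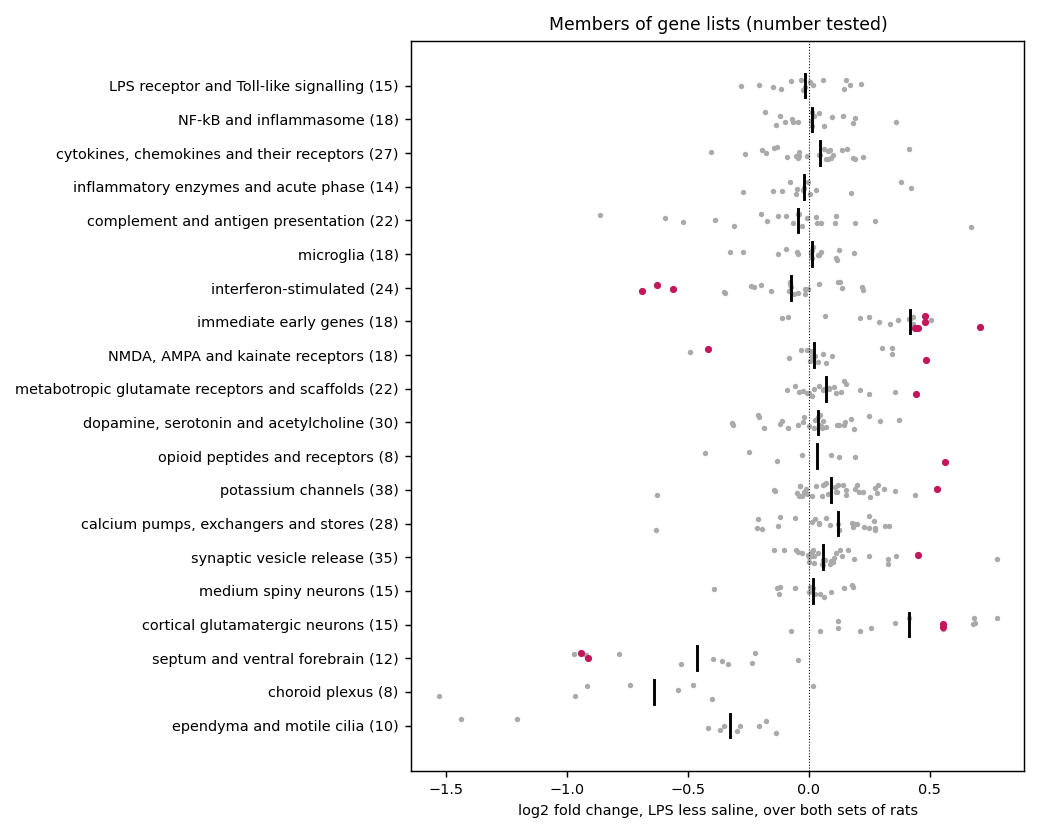
Log2 fold change of LPS against saline over both sets of rats (horizontal axis) for the members of 20 gene lists; each point is a gene, magenta where it passed the thresholds, the black bar is the list's median and the number tested is in parentheses. The 6 uppermost lists, of inflammation and microglia, have medians between -0.04 and 0.05 and no magenta point, the immediate early genes lie to the right (median 0.42), and the septal, choroid plexus and ependymal markers to the left.

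Interferon-stimulated genes were the immune genes that passed, and they were lower after LPS. Of 24 tested, 0 were higher and 3 were lower (12.5%, against 0.88% of all genes), namely Bst2, Oasl2 and Isg15. The other 21 lay between -0.35 and 0.22 and the median over the list was -0.08, so that most of the list differed little. That median was -0.12 in saline-injected and -0.005 in heroin-injected rats. With a pseudocount of 1, 1 of 24 was lower, and leaving out single libraries gave 2 to 4. Over all genes, 83 were lower with that pseudocount, and 107 to 194 without single libraries. The 2 highest values of each of the 3 genes came from Saline-Saline replicate 2 and Saline-Heroin replicate 3, so the 3 are not independent observations. Bst2 encodes tetherin, which holds budding viruses at the cell surface. Its values were 4.45, 6.62, 3.73 and 5.78 FPKM in Saline-Saline and 2.51, 1.90, 2.86 and 4.34 in LPS-Saline, and 4.12, 3.66, 7.82 and 3.51 in Saline-Heroin and 1.68, 2.79, 3.73 and 4.93 in LPS-Heroin. Of the 8 LPS libraries 5 lay below the lowest saline library, and the log2 fold change was -0.69 ± 0.23 (exact permutation p = 0.0167, limma adjusted p = 0.679). Oasl2, an antiviral relative of the oligoadenylate synthetases, was at 0.522, 0.800 and 1.504 FPKM after LPS and 0.763, 1.26 and 2.28 after saline. The groups overlapped, and the log2 fold change was -0.62 ± 0.24 (exact permutation p = 0.0265).

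Isg15, a ubiquitin-like protein that is attached to other proteins under interferon, rested on 20.1 reads on average. It was at 0.306, 0.845 and 1.21 FPKM after LPS and 0.792, 1.05 and 1.86 after saline (log2 fold change -0.56 ± 0.26, exact permutation p = 0.0478), and it no longer passed in 10 of the 16 fits that leave out a single library. Irgm, an interferon-inducible GTPase that was not on the list and was among the 12 genes lower after LPS with the smallest p, was at 2.195, 2.25, 1.90 and 2.05 FPKM in Saline-Saline and 1.23, 1.28, 2.02 and 1.48 in LPS-Saline. In Saline-Heroin it was at 1.41, 1.22, 2.48 and 2.09 FPKM, and in LPS-Heroin at 1.01, 1.10, 1.04 and 1.54. The log2 fold change was -0.51 ± 0.16 (exact permutation p = 0.0049), close to equal in saline-injected (-0.48) and heroin-injected rats (-0.54). These differences changed little or were larger when marker levels were taken into account. With cortical and septal levels as covariates, Bst2 was at -0.72, Oasl2 at -0.75, Irgm at -0.50 and Isg15 at -0.63, the last no longer past the p threshold, and without the 4 libraries the values were -0.85, -0.85, -0.68 and -0.80.

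The promoters of these genes are shown because interferon acts on such genes through a known element, the interferon-stimulated response element. Its core was searched as GAAA, any 2 bases and GAAA again, which reads TTTC, any 2 bases and TTTC on the other strand, in the 250 bases before each gene's start (RefSeq, GRCr8, a later assembly than that of the expression values), and 3.41% of 33469 rat promoters held a match. Of the 4 genes, 3 had a promoter in the table, and all 3 held a match. Each sequence runs 5′ to 3′ along the gene's strand up to its start, with the match in capitals, which in Bst2 are 2 overlapping matches: Bst2 at chr16:18254968-18255217 (minus strand), Oasl2 at chr12:47383186-47383435 (minus strand) and Irgm at chr10:33742579-33742828 (minus strand). Such a match is a description of the letters and was not tested for binding.
Bst2: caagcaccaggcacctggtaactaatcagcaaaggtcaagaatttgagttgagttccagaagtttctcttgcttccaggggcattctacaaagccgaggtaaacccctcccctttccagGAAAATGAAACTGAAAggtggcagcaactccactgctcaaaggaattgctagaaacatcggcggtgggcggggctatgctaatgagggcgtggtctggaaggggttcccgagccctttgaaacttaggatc
Oasl2: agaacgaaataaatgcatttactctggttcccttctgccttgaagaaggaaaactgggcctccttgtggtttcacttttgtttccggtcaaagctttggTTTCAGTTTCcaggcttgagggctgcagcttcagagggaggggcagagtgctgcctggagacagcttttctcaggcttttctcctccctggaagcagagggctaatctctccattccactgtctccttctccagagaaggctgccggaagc
Irgm: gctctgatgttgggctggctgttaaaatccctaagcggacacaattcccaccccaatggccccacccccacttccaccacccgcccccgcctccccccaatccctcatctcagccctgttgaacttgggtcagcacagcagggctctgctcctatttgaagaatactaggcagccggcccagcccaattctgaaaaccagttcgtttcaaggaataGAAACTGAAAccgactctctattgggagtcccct
The match began 34 bases before the start of Irgm, 151 bases before that of Oasl2, and 131 and 125 bases before that of Bst2.

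Immediate early genes are switched on by neurons and other cells within minutes of stimulation. Of 18 tested, 5 passed and all 5 were higher after LPS (27.8%, against 0.907% of all genes), namely Dusp1, Fosl2, Nr4a3, Btg2 and Egr2. With cortical and septal levels as covariates, 1 of 18 passed, and 94 of all 15113 genes were higher. The median of the list was 0.42, 16 members were positive and only Jun and Jund were negative, at -0.11 and -0.08. Fos (0.42), Arc (0.43), Nr4a2 (0.43) and Npas4 (0.51) had values of the same size without passing. Fosl2, a partner of Jun proteins in transcription, was at 11.4, 14.7, 12.2 and 13.7 FPKM in Saline-Saline and 18.2, 14.4, 15.8 and 17.1 in LPS-Saline. It was at 9.09, 7.15, 9.42 and 6.25 FPKM in Saline-Heroin and 19.3, 10.4, 8.21 and 10.7 in LPS-Heroin, so that in each set 3 of 4 LPS libraries exceeded the highest of their controls. Its log2 fold change was 0.44 ± 0.14 (exact permutation p = 0.00531).

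Dusp1, a phosphatase that switches off MAP kinases, was at 26.8, 36.6 and 48.9 FPKM after LPS and at 17.9, 26.9 and 34.6 FPKM after saline. Among its LPS libraries, 4 exceeded the highest saline library, and the log2 fold change was 0.45 ± 0.15 (exact permutation p = 0.0167), 0.35 in saline-injected and 0.55 in heroin-injected rats. Nr4a3, an orphan nuclear receptor, averaged 17.8 ± 2.6 FPKM (SD, n = 4) in LPS-Saline and 12.1 ± 2.4 in Saline-Saline, and 11.5 ± 5.2 in LPS-Heroin and 8.43 ± 2.9 in Saline-Heroin. Its log2 fold change over both sets was 0.48 ± 0.20 (exact permutation p = 0.0469). Btg2, which restrains cell division, was at 6.28, 9.56 and 15.1 FPKM after LPS and 5.21, 6.31 and 12.8 after saline (0.48 ± 0.20, exact permutation p = 0.0486). Egr2, a zinc finger transcription factor, had the highest log2 fold change of the list, 0.71 ± 0.32, but its ranges of 2.04 to 14.3 FPKM after LPS and 1.12 to 14.5 FPKM after saline almost coincided, and the exact permutation p was 0.0571.

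The count of immediate early genes past the thresholds depended on single libraries and on the marker levels. It was 1 of 18 without LPS-Heroin replicate 1, 2 without Saline-Saline replicate 1 or Saline-Heroin replicate 3, and 3 without Saline-Saline replicate 2, LPS-Saline replicate 1 or 4, or Saline-Heroin replicate 2, while it was 8 without Saline-Saline replicate 4 and 9 without LPS-Heroin replicate 3. The count over all genes moved as well. There, 137 were higher in the main fit, 108 without LPS-Heroin replicate 1 and 190 without LPS-Heroin replicate 3. In the fit with marker covariates, the gene that passed was Dusp1 (0.49), 12 members were positive and the median was 0.10. Without the 4 libraries low in cortical markers, 2 passed, the median was 0.18 and Dusp1 was at 0.57. The part of the marker levels in the other members' differences was not tested beyond these fits.

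The promoters of Dusp1 and Btg2 are shown because each holds the full palindromic cAMP response element, TGACGTCA, through which stimulation reaches many immediate early genes. Of all 33469 promoters, 1.59% held these letters, which are their own reverse complement, in the 250 bases before the start. Of the 5 genes past the thresholds, 4 were in the table and 2 held a match, while Fosl2 and Egr2 held none in this window. The match, in capitals, began 124 bases before the start of Dusp1 at chr10:17184603-17184852 (GRCr8, plus strand) and 201 bases before that of Btg2 at chr13:48087691-48087940 (GRCr8, minus strand).
Dusp1: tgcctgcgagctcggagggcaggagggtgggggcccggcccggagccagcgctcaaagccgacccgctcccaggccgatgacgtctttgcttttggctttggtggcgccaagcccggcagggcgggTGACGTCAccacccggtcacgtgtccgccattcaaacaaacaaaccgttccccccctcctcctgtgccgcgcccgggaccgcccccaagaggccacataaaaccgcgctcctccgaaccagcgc
Btg2: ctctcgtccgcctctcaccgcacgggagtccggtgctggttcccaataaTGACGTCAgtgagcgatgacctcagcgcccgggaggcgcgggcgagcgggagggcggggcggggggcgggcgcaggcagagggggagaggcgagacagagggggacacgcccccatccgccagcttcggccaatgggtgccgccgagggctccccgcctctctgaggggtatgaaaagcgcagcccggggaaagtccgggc

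**Figure D4:**
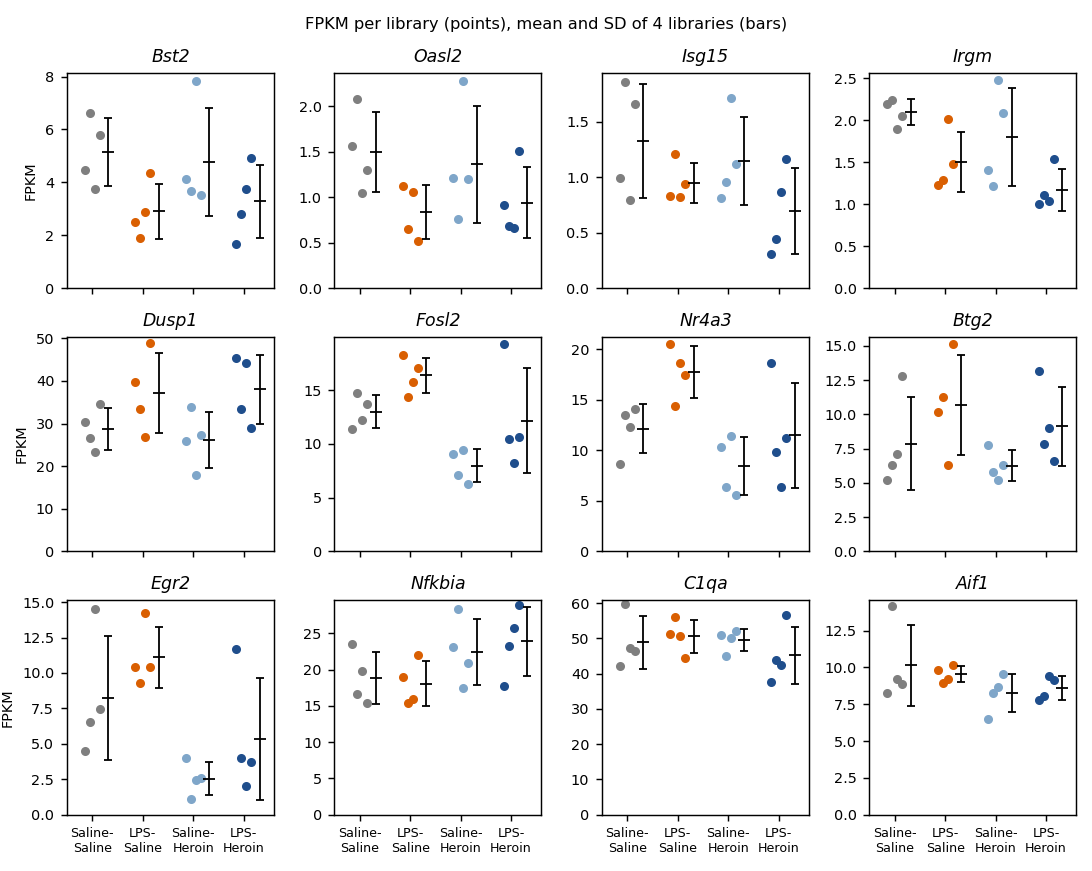
FPKM (vertical axes, from 0) of 12 genes in the 4 groups; each point is a library and each bar the mean and SD of 4 libraries. Bst2, Oasl2, Isg15 and Irgm are lower on average in both LPS groups than in their saline controls, Dusp1, Fosl2, Nr4a3, Btg2 and Egr2 are higher, and Nfkbia, C1qa and Aif1 overlap throughout.

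The genes with the smallest p among those higher after LPS were of mixed function. They were chosen by p in these same libraries, so their exact permutation p-values are a description and no further support. The same holds for the lower genes below, and for Irgm and Bst2 above. Fam131a had the largest difference of the 12 named. It was at 2.46, 1.15, 1.15 and 1.30 FPKM in Saline-Saline and 15.1, 9.66, 4.60 and 6.70 in LPS-Saline, and at 5.95, 1.97, 1.85 and 1.40 in Saline-Heroin and 4.97, 14.5, 2.32 and 16.9 in LPS-Heroin. All 4 LPS-Saline libraries exceeded all 4 of their controls, while LPS-Heroin overlapped Saline-Heroin, and the log2 fold change was 2.01 ± 0.41 (exact permutation p = 0.00204, limma adjusted p = 0.506). Fam131a lies at chr11:82875627-82884660 (rn6, minus strand) within reach of Map3k13 on the same strand, so that reads could be shared between both, and its value is uncertain for that reason. Its difference was 1.82 with marker levels as covariates. Plxdc1, a membrane protein found in blood vessels, was at 2.78, 4.26 and 5.26 FPKM after LPS and 2.71, 2.95 and 3.55 after saline. In 6 LPS libraries it exceeded every saline library, with equal differences of 0.44 and 0.46 in saline-injected and heroin-injected rats (pooled 0.45 ± 0.12, exact permutation p = 0.0049).

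Several others belong to signalling. Cabp7, a neuronal calcium-binding protein, was at 10.1, 12.2 and 14.3 FPKM after LPS and 6.47, 9.19 and 12.3 after saline (0.42 ± 0.11, exact permutation p = 0.00408). It overlaps Zmat5 on the opposite strand, as B3galt2 overlaps Cdc73, and both are uncertain if counting ignored the strand. Trib1, a pseudokinase that steers proteins to degradation, had medians of 5.03 and 3.15 FPKM (0.51 ± 0.14). Gna14, a G-protein subunit of the Gq class, was low, at 0.679 to 1.59 FPKM after LPS and 0.356 to 0.871 after saline, but did not overlap within either set of rats (0.70 ± 0.20). Rxfp1, the relaxin receptor, had medians of 1.93 and 1.06 FPKM (1.03 ± 0.32), and Cyp26a1, which breaks down retinoic acid, 2.13 and 1.05 FPKM (0.91 ± 0.27). The other named genes were Bmper, which binds bone morphogenetic proteins, at 0.70 ± 0.20, B3galt2 (0.51 ± 0.13), Creg2 (0.50 ± 0.14), Rpp40, a subunit of ribonuclease P, at 0.45 ± 0.13 and Emid1 (0.44 ± 0.12). Exact permutation p-values of these genes ran from 0.000408, the smallest the design allows, for Gna14 to 0.0114 for Creg2, and limma adjusted p-values from 0.675 to 0.679. Rxfp1, Cyp26a1, Bmper, B3galt2, Creg2, Emid1, Cabp7 and Trib1 fell below a threshold with marker levels as covariates, at 0.65, 0.49, 0.32, 0.31, 0.38, 0.21, 0.35 and 0.37.

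Among genes lower after LPS, Trh had values of 11.3, 6.64, 9.03 and 7.54 FPKM in Saline-Saline, 6.78, 6.21, 6.28 and 4.65 in LPS-Saline, 5.31, 10.6, 7.60 and 6.21 in Saline-Heroin and 5.63, 4.36, 4.70 and 5.98 in LPS-Heroin. It encodes thyrotropin-releasing hormone, a neuropeptide, and all 8 LPS libraries lay below the median of the saline libraries (-0.49 ± 0.14, exact permutation p = 0.0049). Its 2 highest values came from 2 of the 4 libraries low in cortical markers, and with marker levels as covariates it was at -0.26 and no longer passed. Nrsn2, a neuronal vesicle protein, was the lower gene with the smallest p, at 49.2, 59.8 and 73.8 FPKM after LPS and 60.5, 82.7 and 98.5 after saline (-0.41 ± 0.11, exact permutation p = 0.00367), and was at -0.19 with the covariates. Bag3, a co-chaperone, was at 3.18, 5.21 and 6.82 FPKM and 5.37, 7.78 and 10.1 FPKM (-0.49 ± 0.15, exact permutation p = 0.0049). Of 26 chaperone and unfolded protein genes, Bag3 alone passed (3.85%, against 0.88% of all genes lower). It was at -0.30 with the covariates and no longer passed.

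The remaining lower genes of the 12 were Tox2 (-0.62 ± 0.18), the orphan nuclear receptor Nr2f2 (-0.72 ± 0.24), the metalloproteinase inhibitor Timp4 (-0.56 ± 0.18), the glutathione transferase Gstm6 (-0.68 ± 0.22), the proton pump subunit Atp6v1c2 (-0.48 ± 0.16), Lrrc46 (-0.56 ± 0.17) and Zfp663 (-0.39 ± 0.13). Gstm6 overlaps Gstm7 on the same strand and is uncertain. Timp4 overlaps Syn2 on the opposite strand and is uncertain if counting ignored the strand. Nr2f2 was at 2.29, 2.61 and 4.98 FPKM after LPS and 2.86, 4.12 and 11.3 after saline, with 6 LPS libraries below every saline library, and was at -0.38 and no longer passed with the covariates. Tox2, Timp4 and Gstm6 were at -0.25, -0.24 and -0.43 there and no longer passed, while Lrrc46, Atp6v1c2 and Zfp663 still passed at -0.47, -0.63 and -0.45. Over the 42 genes named by rank or by list, 35 had a smaller absolute difference with the marker levels in the fit. The 42 were chosen because they passed without these covariates, and the share over all genes was not counted. Smaller differences in the fit with marker levels thus follow in part from that choice. Ctgf, Tbr1, Zic2 and Zic4 are among the 42 and are members of the marker lists, so their own shrinkage is built into that fit. Of the 270 genes, 77 still passed in that fit, all 270 had the same sign, and the median difference was 0.726 times the one without the covariates. Without the 4 libraries, 122 of the 270 passed. In all, 184 genes passed in the fit with covariates and 247 without the 4 libraries, many of them outside the 270. Leaving out single libraries kept 176 to 233 of the 270. Without Saline-Saline replicate 1 and Saline-Heroin replicate 2, 133 of them passed.

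**Figure D5:**
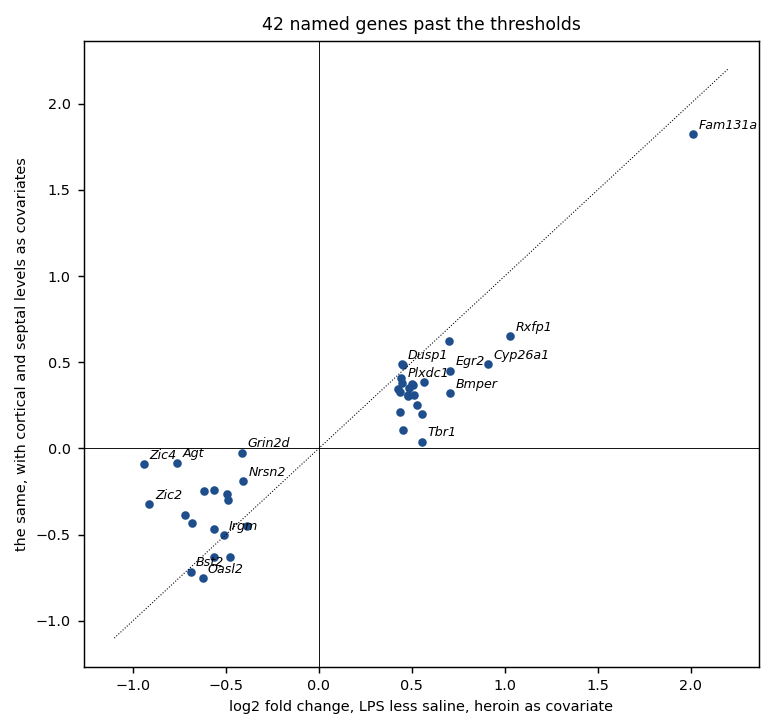
Log2 fold change of LPS against saline for 42 named genes past the thresholds, with heroin alone as covariate (horizontal axis) and with cortical and septal marker levels added (vertical axis); the dotted line marks equal values. Bst2, Oasl2, Irgm and Dusp1 lie on or beyond the line, Fam131a just below it, and Tbr1, Grin2d, Zic4 and Agt lie near 0 on the vertical axis. Tbr1 and Zic4 are themselves members of the marker lists used as covariates, so their shrinkage is built into the fit.

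A few genes, most of them with small differences, did not overlap between LPS and saline libraries. The 8 LPS libraries did not overlap the 8 saline libraries for 4 genes (0.0265%), 3 higher and 1 lower, and within both sets of rats separately for 9 genes (0.0596%). They are given as a description, since they were chosen by this very property after their values were seen. Relabelling alone gives no overlap within both sets at a share of 0.000408, the smallest exact permutation p. This is of the same order as the share seen. Pip4k2b, a phosphatidylinositol phosphate kinase at chr10:85658324-85684138 (rn6), was at 48.1 to 55.8 FPKM in LPS libraries and 38.4 to 47.9 FPKM in saline libraries, a log2 fold change of 0.23 ± 0.04. Eif5a2, a translation factor, was at 19.4 to 22.02 and 16.4 to 19.3 FPKM (0.18 ± 0.04). Pom121, a protein of the nuclear pore, was at 13.7 to 16.5 and 16.9 to 19.5 FPKM (-0.21 ± 0.05). The other gene was the miRNA gene row AABR07015080.1, with 14.5 reads on average (1.04 ± 0.25, limma adjusted p = 0.644). Within both sets Prr12 (-0.26 ± 0.05) and Pianp (-0.25 ± 0.05) were lower without overlap, and Wdr76 (0.43 ± 0.13), Rap2c (0.13 ± 0.05) and Gna14 higher. All of these except AABR07015080.1, Gna14 and Wdr76 were below the fold threshold, with limma adjusted p-values of 0.506 to 0.679, and none of Pip4k2b, Eif5a2, Pom121, Prr12 and Pianp moved by more than 0.04 with marker levels as covariates.

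Receptors and channels of neurons differed by single members. Of 18 NMDA, AMPA and kainate receptor genes, Grin2a was higher and Grin2d lower (11.1%, against 1.79% of all genes). Grin2a, an NMDA receptor subunit of mature forebrain synapses, was at 4.37, 6.59 and 9.48 FPKM after LPS and 2.65, 4.84 and 6.91 after saline (0.48 ± 0.19, exact permutation p = 0.0392), with 0.82 in saline-injected and 0.15 in heroin-injected rats, an interaction of -0.66 (unadjusted limma p = 0.0826). Grin2d, a subunit more common in interneurons and ventral forebrain, was at 2.69, 3.67 and 6.68 FPKM and 2.70, 6.18 and 7.13 FPKM (-0.41 ± 0.19, exact permutation p = 0.0751), and at -0.02 with marker levels as covariates. Among the 22 metabotropic glutamate receptor and scaffold genes Grm2, a presynaptic receptor, passed (4.55%, against 0.907% of all genes higher, log2 fold change 0.44 ± 0.18). Among 8 opioid peptides and receptors, 4 positive and 4 negative, the delta receptor Oprd1 passed (12.5%, against 0.907% of all genes higher). It was at 3.54, 4.74 and 7.65 FPKM after LPS and 1.36, 3.38 and 5.03 after saline (0.56 ± 0.21, exact permutation p = 0.0208). With marker levels as covariates Oprd1 was at 0.39, Grin2a at 0.35 and Grm2 at 0.41, and none of the 3 passed. The mu receptor Oprm1, through which heroin acts, was at 0.515 to 1.65 FPKM after LPS and 0.560 to 0.908 after saline (0.13 ± 0.22, exact permutation p = 0.541).

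Ion channel and release genes had small positive medians. An unadjusted p under 0.05 by limma was reached by 7 of 38 potassium channel genes, all 7 higher, by 5 of 28 genes of calcium pumps, exchangers and stores, all 5 higher, and by 5 of 35 synaptic vesicle genes, all 5 higher, against 3.9% of all genes higher and 2.94% lower. The balance over all genes depended on the scaling, with 589 higher and 445 lower here, 531 and 539 with quantile normalization, 467 and 488 with equal medians, and 415 and 646 with limma-voom. The medians of the 3 lists were 0.09, 0.12 and 0.06, and were positive under each of these scalings, with 5 to 7, 3 to 5 and 4 to 6 higher genes at an unadjusted p under 0.05 and at most 1 lower. With marker levels as covariates, 1 gene of each list was higher at that p, and 314 of all genes were. With the fold threshold only Kcnh7 (0.53 ± 0.19) and Sv2b (0.45 ± 0.18) passed, 2.63% and 2.86% of their lists against 0.907% of all genes higher. Slc8a2, a sodium-calcium exchanger, was at 57.0, 73.4 and 85.6 FPKM after LPS and 48.1, 59.3 and 77.6 after saline (0.28 ± 0.08, exact permutation p = 0.00449), and Scn8a, a sodium channel, at 23.0, 26.3 and 34.6 and 19.9, 21.6 and 27.6 FPKM (0.29 ± 0.09, exact permutation p = 0.0118). With marker levels as covariates these 4 were at 0.25, 0.10, 0.14 and 0.15. Slc8a2 and Scn8a were named for a small p in their lists, so their exact permutation p-values are a description. Of 30 dopamine, serotonin and acetylcholine genes 0 passed, including Drd1 (0.14 ± 0.15), Drd2 (-0.12 ± 0.14), Ddc (-0.20 ± 0.16) and Htr2a (0.29 ± 0.14). The vesicular GABA transporter Slc32a1, at medians of 108 and 139 FPKM, was at -0.30 ± 0.12 and below the fold threshold. Of 18 circadian clock genes 0 passed, and of 19 glucocorticoid response gene rows Dusp1 alone (5.26%), where 1.79% of all genes passed.

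Markers of neighbouring tissue themselves were among the genes past the thresholds. Cortical Ctgf and Tbr1 were higher (2 of 15, 13.3%, against 0.907% of all genes), with a list median of 0.41 and 14 positive. Septal Zic2 and Zic4 were lower (2 of 12, 16.7%, against 0.88% of all genes), with a list median of -0.46 and all 12 negative. Tbr1, a transcription factor of deep-layer cortical neurons, was at 7.95, 25.5 and 27.2 FPKM after LPS and 6.45, 16.7 and 22.6 after saline. Zic2, a transcription factor of the septum, was at 1.98, 2.72 and 7.10 FPKM after LPS and 2.37, 6.25 and 22.1 after saline. Choroid plexus and ependymal markers had 0 members past the thresholds but medians of -0.64 over 8 and -0.32 over 10 genes, the latter all negative. Agt, angiotensinogen, was the 1 of 14 astrocyte genes that passed (7.14%, against 0.88% of all genes lower, log2 fold change -0.76 ± 0.35), and was at -0.08 with marker levels as covariates. In bulk tissue, fewer cells of a type and less RNA per cell cannot be told apart.

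Oxt, the gene of the hypothalamic hormone oxytocin, had the largest fold of any gene with at least 10 reads on average and was singled out after its values were seen. It was at 21.3, 3.58, 31.3 and 0 FPKM in Saline-Saline, 0, 2.199, 0 and 0.136 in LPS-Saline, 0, 95.1, 0.124 and 0.153 in Saline-Heroin and 0.251, 0, 0 and 0 in LPS-Heroin. The 3 libraries with the highest values, Saline-Saline replicates 1 and 3 and Saline-Heroin replicate 2, were the 3 saline libraries low in cortical markers. The fitted log2 fold change of -3.26 ± 1.40 was -0.50 without the 4 libraries.

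LPS differences that depended on heroin were tested as an interaction, in which 349 genes passed (2.31%), 191 positive and 158 negative, 0 with an adjusted p under 0.05 by limma (607 with an unadjusted p under 0.05, smallest adjusted p 0.163). Some small RNA genes and a gene row without a proper symbol had the smallest p. Among genes past the thresholds with a proper symbol and at least 10 reads on average, the 4 with the smallest p had crossed differences, each with a limma adjusted p of 0.992. Htr1f, a serotonin receptor, averaged 1.44 ± 0.16 FPKM (SD, n = 4) in Saline-Saline and 2.09 ± 0.10 in LPS-Saline, but 2.14 ± 0.29 in Saline-Heroin and 1.61 ± 0.24 in LPS-Heroin. Npl, a sialic acid lyase, averaged 5.66 ± 1.7 and 7.40 ± 0.54 FPKM, and 7.29 ± 0.27 and 5.13 ± 0.56. Epha6, an ephrin receptor, averaged 7.08 ± 1.0 and 8.56 ± 0.79 FPKM, and 10.0 ± 1.5 and 7.15 ± 0.89, and Bivm 10.6 ± 0.95 and 11.6 ± 0.52, and 12.3 ± 0.57 and 9.73 ± 0.66. In the pooled comparison these 4 were near 0, between -0.11 and 0.06, with opposite signs in saline-injected and heroin-injected rats.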

How the data were processed

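RNA of the NAc was sequenced from polyadenylated RNA (300 ng of total RNA per sample, directional libraries), and samples were grouped by their labels. Per the labels' processing notes, the tools fastp, HISAT2 and featureCounts and the build rn6 were used, with versions not given in the sources used here. The authors deposited FPKM values (reads per gene relative to gene length and to the library's total) for 32545 genes. Whether counting used the strand is not stated, so genes that overlap others on the same strand are reported as uncertain. Overlaps of Cabp7, B3galt2 and Timp4 with genes on the opposite strand matter only if counting ignored the strand. Overlaps of other named genes were not all listed in the text. The paper's methods state a larger number of sequenced samples per group than the 4 libraries per group whose values were analysed here. FPKM values times gene length were whole multiples of a step per library in 100% of values (tolerance 0.01 read), which gave whole reads. Reads on genes set the precision of each value.

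log2(FPKM + 0.1) of the 16 libraries was fitted with limma 3.58.1 (limma-trend, R 4.3.3) on LPS and heroin, keeping genes that averaged 0.5 FPKM or more, with Benjamini-Hochberg adjustment over all 15113 genes. A group-means fit gave the LPS effect within saline-injected and heroin-injected rats and the interaction. Fold changes are on the log2(FPKM + 0.1) scale, which understates changes of low genes, and are given with SE. Tests are two-sided. Single genes were also tested by exact permutation of the LPS labels within both sets of rats, for which the smallest p of the 4900 arrangements is 0.000408. These p-values are not adjusted. For genes named because they passed, or had a small p in their list, in the same libraries, they give no independent support. Groups of 4 libraries are labelled biological replicates. Replicate numbers did not pair the samples, since correlations of deviations between libraries of equal number ran from -0.143 to 0.163.

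The members, thresholds and gene lists were chosen with earlier results of these data known. Named genes were the 12 higher and 12 lower genes with the smallest p among those past the thresholds that had a proper symbol, a mean of at least 10 reads and equal signs in both sets of rats, the members of each list past the thresholds or otherwise 2 with the smallest p, a fixed set of receptor, cytokine and glial genes, and the 4 with the smallest interaction p among genes past the thresholds with a proper symbol and a mean of at least 10 reads. A list's level is the mean of log2(FPKM + 0.1) over its tested members. Alternatives were other pseudocounts, filters, scalings, moderation, limma-voom on recovered reads, all 24 libraries, other thresholds, no covariate, an averaged effect, a replicate block and leaving out each library. The fits with marker covariates and without libraries that stood apart were added after seeing the data. The procedure was tested on simulated data. The self-administration libraries were not used here beyond that alternative.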

Additional observations from a re-analysis of the deposited data

Results flagged for a closer look

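Dixon's test singled out 34 of 568 groups of 4 libraries, where chance alone gives about 1 in 20, or 28.4. Among genes higher or lower after LPS, a library stood apart for Fam131a (2.46 FPKM, Saline-Saline replicate 1, high), Gna14 (1.59, LPS-Saline replicate 2, high), Creg2 (9.34, LPS-Heroin replicate 3, low), Rxfp1 (0.269, Saline-Saline replicate 3, low), Bag3 (6.15, Saline-Saline replicate 2, low), Nr2f2 (4.98, LPS-Saline replicate 4, high), Grm2 (4.77, Saline-Saline replicate 1, high), Sv2b (30.8, LPS-Saline replicate 3, low) and Tbr1 (9.64, Saline-Heroin replicate 2, low). Oxt stood apart at 95.1 FPKM in Saline-Heroin replicate 2 and at 0.251 FPKM in LPS-Heroin replicate 1, where the other LPS-Heroin libraries were at 0.

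Immune and glial genes with such a library were Tnip1 (17.0 FPKM, LPS-Heroin replicate 3, high), Rel (1.04, the same library, low), Ptprc (0.703, the same library, low), Tmem119 (9.62, LPS-Saline replicate 4, low), P2ry12 (8.52, Saline-Saline replicate 1, low), Il1b (0.0445, Saline-Saline replicate 1, low, and 0.0972, LPS-Saline replicate 1, high) and Tnf (0.0804, LPS-Saline replicate 1, high). The others were Slc32a1 (163 FPKM, LPS-Saline replicate 3, high), Esam (5.30, Saline-Heroin replicate 3, low), Spa17 (10.6, LPS-Saline replicate 3, high), Tekt1 (7.94, Saline-Saline replicate 1, high), Bivm (10.7, LPS-Heroin replicate 2, high), Epha6 (8.47, the same library, high) and Pom121 (19.5, Saline-Saline replicate 4, high).

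For list levels, as mean log2(FPKM + 0.1), the libraries that stood apart were Saline-Saline replicate 3 for circadian clock genes (4.27, high), Saline-Saline replicate 2 for microglia (3.92, high), LPS-Saline replicate 4 for cytokines (2.71, high) and chaperones (5.32, high), LPS-Saline replicate 3 for GABA genes (5.63, high), Saline-Heroin replicate 2 for septal markers (2.74, high) and LPS-Heroin replicate 4 for astrocytes (5.81, high) and oligodendrocytes (6.19, low).

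The LPS effect differed between heroin-injected and saline-injected rats at an unadjusted limma p under 0.05 for Bivm (-0.46), Epha6 (-0.76), Htr1f (-0.90) and Npl (-0.93), which had the smallest interaction p among genes with a proper symbol and at least 10 reads that passed both thresholds, and for Cx3cr1 (0.57) and Kcne2 (1.20). No interaction had an adjusted p under 0.05 by limma, with 607 genes at an unadjusted p under 0.05.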

How the results depend on the processing

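The 270 genes past the thresholds became 175 with a pseudocount of 1, 533 with no filter, 1034 with no fold threshold and 66 at an unadjusted p of at most 0.01. In the same order without the pseudocount, the saline-injected count became 637, 1008 and 77, the heroin-injected count 576, 610 and 73, and the interaction count 565, 607 and 73. Leaving out single libraries, or Saline-Saline replicate 1 with Saline-Heroin replicate 2 (201), gave 201 to 424 genes, and 274 to 542 in saline-injected rats. Both highest counts, 424 and 542, came without LPS-Saline replicate 3. Higher and lower genes numbered 153 and 118 with quantile normalization, 125 and 138 with equal medians, and 127 and 170 with limma-voom. The smallest limma adjusted p over the planned settings was 0.0647, and without the 4 libraries low in cortical markers 1 gene, SNORD113, had one of 0.0291. The replicate block gave 279 genes (318, 313 and 346 in saline-injected rats, heroin-injected rats and the interaction); replicate numbers were not shown to pair the samples.

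Some values near 0 changed sign. With marker covariates these were Cry2 (-0.0127), Isl1 (0.0424), Pdgfra (0.0228), Aif1 (-0.0556), Itgam (-0.0634), P2ry12 (-0.0529) and Htr1f (-0.0535), and without the 4 libraries Aif1 (-0.0449), Itgam (-0.0940), P2ry12 (-0.109) and Htr1f (-0.0287). Nfkbia was at -0.0040 with quantile normalization and -0.0014 with limma-voom, where Aif1 was at -0.0112. Leaving out libraries gave ranges of -0.0470 to 0.0929 for Aif1, -0.0748 to 0.0419 for Gfap, -0.0207 to 0.344 for Hbb, -0.0083 to 0.134 for Htr1f, -0.0599 to 0.157 for Itgam, -0.0419 to 0.131 for Nfkbia, -0.152 to 0.0254 for Npl, -0.0019 to 0.213 for Oprm1 and -0.0211 to 0.218 for P2ry12. The cause was not tested. Of 44 named genes past the thresholds, all had the same sign in every setting in which they were tested (1 was not tested with a filter of 1 FPKM), and 12 still passed with marker covariates and 25 without the 4 libraries. Leaving out single libraries kept 31 to 42 of them. Ctgf, Tbr1, Zic2 and Zic4, which are among these genes, are part of the marker covariates. Egr2 failed in 12 of 16 fits without a single library, Grin2d and Zic2 in 11, Isg15, Tbr1 and Zic4 in 10, and Agt in 9. Genes with few reads, such as Isg15 and Gna14, are limited by depth.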
